A study of Homo sapiens with 18 samples.

Results

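The genes described here are 32 genes of cholesterol synthesis and of the SREBP programme, taken by symbol from the 26485 symbols counted in every library. They cover the mevalonate pathway (7 genes), the sterol branch that follows it (9), the regulators of SREBP (5), sterol uptake, transport and efflux (4) and SREBP-driven fatty acid synthesis (7). All 32 had enough counts to be among the 14011 genes tested. The RNA was taken from BxPC3, Panc327 and SUIT2, 3 established lines of human pancreatic ductal adenocarcinoma, exposed in culture for 6 h to 100 nM THZ1 or to DMSO, its vehicle. THZ1 binds covalently to CDK7, a kinase that acts at the start of transcription as a subunit of TFIIH, and also to CDK12 and CDK13. Each line and treatment had 3 libraries of polyadenylated RNA, so 6 groups and 18 libraries. Nothing in the labels says whether the 3 libraries of a group are separate cultures, and p-values therefore reflect the spread among these libraries, which may be technical.

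Sterol regulatory element binding proteins (SREBPs) are transcription factors made as membrane proteins of the endoplasmic reticulum. When sterols are low, the escort protein SCAP carries them to the Golgi, where proteases release the active part, which enters the nucleus and switches on genes of cholesterol and fatty acid synthesis and of sterol uptake. When sterols are high, INSIG proteins hold SCAP in the endoplasmic reticulum. SREBF2 encodes the form best known for cholesterol genes and SREBF1 the forms best known for fatty acid genes, and several genes of the pathway, INSIG1 and SREBF2 among them, are themselves SREBP targets. The liver X receptors (LXR) sense oxidised sterols and, for cholesterol, act in the other direction, switching on sterol efflux through ABCA1.

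Gene counts per library ranged from 5626146 to 8631273. Levels are given as CPM (counts scaled to a common library total) after TMM scaling, which sets the typical gene to no change, and a gene is called where the edgeR quasi-likelihood test gave a Benjamini-Hochberg adjusted p under 0.05 over all tested genes. The scaling matters here. TMM factors were 0.810 to 0.820 in BxPC3 and 0.858 to 0.873 in Panc327 with THZ1, and 1.06 to 1.12 in all other groups. Scaling by library size alone therefore moved the median gene to -0.35 (log2) in BxPC3 and to -0.34 in Panc327, against 0.00 and -0.01 with TMM. The share of higher genes among all calls went from 50.8% to 26.8% in BxPC3, from 48.5% to 31.0% in Panc327 and from 47.7% to 39.3% in SUIT2. A direction that was called alike with TMM, with RLE size factors and with library size alone is referred to as held. Each of these scalings is relative to a library's own counts, so a held direction need not be a change in RNA per cell. Records that aligned to more than 1 place also moved with THZ1. They made up 21.9% to 23.4% of records with THZ1 and 12.2% to 13.4% with DMSO in BxPC3. In Panc327 they were 51.7% to 54.9% and 13.5% to 13.8%, and in SUIT2 12% to 13.8% and 12.8% to 14.1%. Their part in the results below was not tested. Epithelial markers were present in all 3 lines (5 genes, summed 4062 to 8940 CPM), with KRT7 at only 11.1 to 19.5 CPM in SUIT2. The 3 immune markers summed to 1.07 to 3.30 CPM in BxPC3, 3.38 to 6.25 CPM in Panc327 and at most 0.122 CPM in SUIT2, mostly from CD14 (2.95 to 5.73 CPM in Panc327), with PTPRC at most 0.197 CPM. The 3 fibroblast markers summed to at most 0.224 CPM, with DCN at 0 in every library. The 3 endothelial markers summed to 2.32 to 18.6 CPM.

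Promoter sequences were available for 28 of the 32 genes (38 promoters in RefSeq on GRCh38.p14, from 250 bases before to 50 after the start site), but not for ACAT2, FDFT1, SQLE and FASN. Both strands were searched for 4 motifs. The sterol regulatory element TCACNCCAC was in 1.13% of all 35116 promoters and in 1 of the 38, that of SREBF2, with its first base 133 bases before the start site. CCAAT, the box bound by NF-Y, which acts together with SREBPs, was in 34.6% of all promoters and 60.5% of the 38, belonging to 19 of the 28 genes. The E-box CACGTG was in 7.26% and 15.8%, and the GC box GGGCGG in 45.0% and 92.1%, belonging to 5 and to 28 of the 28 genes. Some members have more than 1 of the 38 promoters. The 35116 promoters were not limited to genes tested here, whereas all members were tested, so these shares do not compare members with other expressed genes. A match describes letters in this window and not binding, and no match says only that these letters are not in it. The 250 bases before the start site are printed for SREBF2, the one gene with the sterol element, for INSIG1 and MVK, which fell with THZ1 in BxPC3 and Panc327, and for MYLIP and STARD4, which rose most in both. Capitals mark the sterol element, the CCAAT box (ATTGG on the other strand) and the E-box, and GC boxes are left in lower case. No capitalised match overlaps another. Start sites are those of RefSeq, while the gene positions given below are from GENCODE. The MVK window lies inside its gene position, and those of SREBF2, INSIG1 and STARD4 lie partly inside theirs.
SREBF2, chr22:41832855-41833104, plus strand: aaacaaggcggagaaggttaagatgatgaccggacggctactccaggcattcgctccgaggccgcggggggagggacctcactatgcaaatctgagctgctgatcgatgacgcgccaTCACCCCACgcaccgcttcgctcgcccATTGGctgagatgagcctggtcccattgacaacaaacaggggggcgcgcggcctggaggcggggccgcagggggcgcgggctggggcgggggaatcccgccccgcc
INSIG1, chr7:155297628-155297877, plus strand: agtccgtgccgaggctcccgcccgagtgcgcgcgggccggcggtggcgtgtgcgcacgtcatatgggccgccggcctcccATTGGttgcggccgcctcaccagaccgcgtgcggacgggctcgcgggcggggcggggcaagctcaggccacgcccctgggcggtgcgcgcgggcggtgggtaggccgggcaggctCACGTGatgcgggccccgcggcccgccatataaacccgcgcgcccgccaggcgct
MVK, chr12:109573544-109573793, plus strand: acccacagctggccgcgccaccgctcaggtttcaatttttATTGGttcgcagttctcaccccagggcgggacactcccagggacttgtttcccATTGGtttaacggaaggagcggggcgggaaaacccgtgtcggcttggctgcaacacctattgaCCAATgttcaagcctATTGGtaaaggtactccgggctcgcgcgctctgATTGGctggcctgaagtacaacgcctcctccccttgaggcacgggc
MYLIP, chr6:16128836-16129085, plus strand: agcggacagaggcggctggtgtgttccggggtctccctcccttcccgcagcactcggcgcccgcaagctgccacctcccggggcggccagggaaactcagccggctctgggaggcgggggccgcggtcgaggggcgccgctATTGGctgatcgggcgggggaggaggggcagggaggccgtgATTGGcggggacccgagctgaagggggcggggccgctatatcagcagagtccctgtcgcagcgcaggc
STARD4, chr5:111512536-111512785, minus strand: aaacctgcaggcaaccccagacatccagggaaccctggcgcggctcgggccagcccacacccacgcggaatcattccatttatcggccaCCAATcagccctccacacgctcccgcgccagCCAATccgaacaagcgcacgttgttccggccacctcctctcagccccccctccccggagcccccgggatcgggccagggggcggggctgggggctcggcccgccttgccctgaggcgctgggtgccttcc
The MVK promoter held 5 CCAAT boxes, those of MYLIP and STARD4 held 2 each, and those of SREBF2 and INSIG1 held 1 each. CCAAT boxes were thus in promoters of genes that rose and of genes that fell.

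The first comparison asks what THZ1 changed in each line. In BxPC3, 20 of the 32 genes were called higher and 6 lower, where 35.2% and 34.1% of all tested genes were (69.4% in either direction). In Panc327 the counts were 20 and 7, where 35.6% and 37.8% of all genes were called higher and lower (73.4% in either direction). The members' median log2 fold change was 0.23 in BxPC3 and 0.30 in Panc327. With library size alone the counts became 9 higher and 15 lower in BxPC3, with a median of -0.16, and 10 higher and 11 lower in Panc327, with a median of -0.03. Over all 14011 genes, library size alone called 2601 higher and 7109 lower in BxPC3, and 3170 and 7042 in Panc327. In BxPC3, 9 rises and 5 falls of members held with each scaling, where 18.6% and 32.5% of all genes did. In Panc327, 10 rises and 7 falls held, where 22.6% and 33.9% of all genes did. The falls held in both lines were the same 5 genes, MVK, SQLE, INSIG1, INSIG2 and ELOVL6. The rises held in both were 8 genes, MVD, FDPS, LSS, SCAP, SREBF2, MYLIP, STARD4 and SCD. In SUIT2 only 5 genes were called higher and 2 lower, where 6.95% and 7.64% of all genes were (14.6% in either direction), and the median was 0.07. HMGCS1 and PMVK were called in no line. The set therefore did not move as a block: enzymes of one pathway were called in opposite directions in the same cells.

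**Figure D1:**
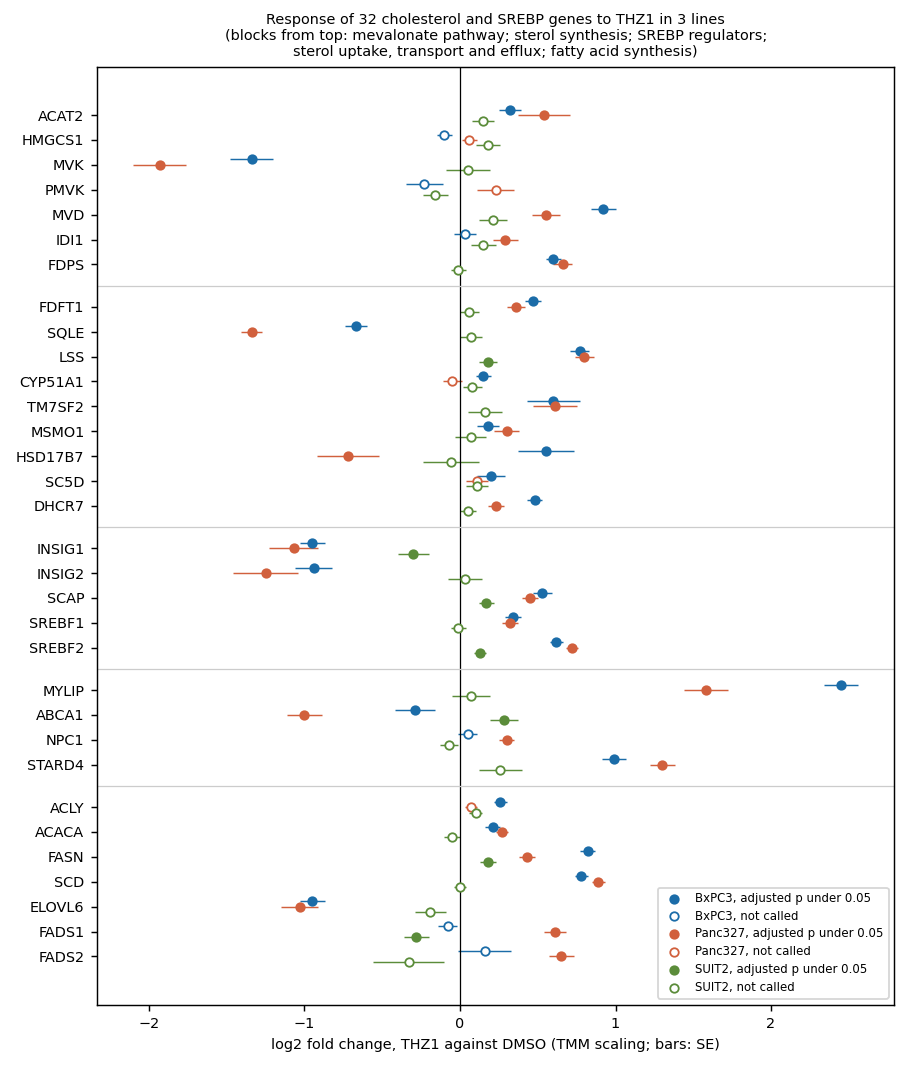
Log2 fold change of each of the 32 genes with THZ1 against DMSO, by role, in BxPC3, Panc327 and SUIT2 (TMM scaling, error bars 1 SE, filled points called). MYLIP lies at 2.45 in BxPC3 and 1.58 in Panc327 and MVK at -1.34 and -1.93, while SUIT2 values lie close to 0; with library size alone all BxPC3 and Panc327 points shift down, and the rises of several genes, SREBF1 and ACACA among them, become negative.

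In the mevalonate pathway, which makes the isoprenoid units of sterols, THZ1 lowered MVK and raised MVD and FDPS in BxPC3 and Panc327. MVK, mevalonate kinase (chromosome 12, 109573255 to 109598117), was at 27.4, 27.8 and 25.1 CPM in the 3 BxPC3 libraries with DMSO and at 12.8, 11.8 and 7.14 CPM with THZ1. In Panc327 its level was 22.8, 19.8 and 23.9 CPM with DMSO and 4.69, 7.04 and 5.92 CPM with THZ1. The groups did not overlap in either line, and the third BxPC3 library with THZ1 was the lowest of its group. The log2 fold change was -1.34 (SE 0.14, adjusted p = 2.11e-14) in BxPC3 and -1.93 (SE 0.17, adjusted p = 1.57e-17) in Panc327. In SUIT2, MVK was already lower, at 11.1, 11.96 and 11.6 CPM with DMSO, and stood at 14.8, 12.1 and 9.03 CPM with THZ1, which overlapped (log2 fold change 0.05, SE 0.14, adjusted p = 0.867). Exons of MVK overlap MMAB on the other strand over 4.72% of their length. MVD, the decarboxylase that makes isopentenyl diphosphate, rose from 39.6 ± 1.63 to 75.1 ± 3.95 CPM in BxPC3 and from 31.2 ± 2.23 to 45.8 ± 3.70 CPM in Panc327 (SD, n = 3). FDPS, farnesyl diphosphate synthase, rose from 140 ± 4.64 to 213 ± 2.32 CPM and from 84.1 ± 1.91 to 133 ± 4.13 CPM. Both rises held with each scaling. Exons of FDPS share 18.6% of their length with RUSC1-AS1 on the other strand, and FDPS has 8 annotated pseudogenes. Counting was on a kit that does not mark strand, so its reads are assigned with less certainty. ACAT2, which joins acetyl-CoA units at the start of the pathway, was called higher in BxPC3 (0.32, SE 0.07) and Panc327 (0.54, SE 0.17), but with library size alone it stood at -0.07 and 0.22 and was not called. The Panc327 call of ACAT2 was also lost without the first THZ1 library (0.40, adjusted p = 0.0706), and 35.8% of its exonic length overlaps SOD2 and TCP1. IDI1, the isomerase, was called higher only in Panc327 (0.29, SE 0.08), which turned to -0.03 with library size alone, and 14.8% of its exonic length overlaps IDI2-AS1. HMGCS1, the cytosolic HMG-CoA synthase, had a log2 fold change of -0.10 in BxPC3 (adjusted p = 0.0535) and 0.06 in Panc327 (adjusted p = 0.273). With library size alone both were called lower, at -0.50 and -0.26. PMVK, phosphomevalonate kinase, was at -0.23 and 0.23, neither called with TMM, and at -0.63, called, and -0.09 with library size alone.

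In the sterol branch, SQLE fell and LSS rose, though these enzymes follow each other in the pathway. SQLE, squalene epoxidase, a rate-limiting enzyme of sterol synthesis (chromosome 8, 124998497 to 125022283), was at 147, 133 and 135 CPM with DMSO and at 91.8, 93.2 and 74.9 CPM with THZ1 in BxPC3. In Panc327 it was at 146, 152 and 128 CPM with DMSO and at 55.9, 53.6 and 58.8 CPM with THZ1. The groups stood apart in both lines, with log2 fold changes of -0.67 (SE 0.07, adjusted p = 4.33e-14) and -1.34 (SE 0.07, adjusted p = 1.24e-25). In SUIT2, SQLE was at 55.0, 57.8 and 65.4 CPM with DMSO and at 61.6, 61.4 and 65.0 CPM with THZ1. These overlapped, and the log2 fold change was 0.07 (SE 0.07, adjusted p = 0.550). LSS, lanosterol synthase, rose from 58.9 ± 1.65 to 101 ± 3.91 CPM in BxPC3 (log2 fold change 0.77, SE 0.06) and from 65.1 ± 3.30 to 113 ± 3.06 CPM in Panc327 (0.80, SE 0.06; SD, n = 3), and both rises held.

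Of the other 7 sterol enzymes, HSD17B7 in Panc327 had the one change that held, and the other calls in BxPC3 and Panc327 were lost or turned with library size alone. FDFT1, squalene synthase, was called higher in BxPC3 (0.47, SE 0.05) and Panc327 (0.36, SE 0.06), but was at 0.08 and 0.03 with library size alone. TM7SF2, a sterol reductase, was called higher in both (0.60, SE 0.17, and 0.61, SE 0.14), and uncalled with library size alone at 0.20 and 0.29. DHCR7, which makes cholesterol from 7-dehydrocholesterol, was called higher in both (0.48 and 0.23, SE 0.05 each), and was at 0.08 and -0.10, uncalled, with library size alone. MSMO1, a sterol C4 oxidase, was called higher at 0.18 and 0.30, which became -0.22, called lower, and -0.02. CYP51A1, lanosterol demethylase, was called higher in BxPC3 (0.15), where library size alone called it lower (-0.25), and was at -0.05 in Panc327, which was called lower at -0.38 with library size alone. SC5D, a sterol desaturase, was called higher in BxPC3 (0.20) and not in Panc327 (0.11), and stood at -0.19 and -0.22 with library size alone. The BxPC3 calls of these smaller rises rested on single libraries. The call of CYP51A1 was lost without the second DMSO library (0.10, adjusted p = 0.133), the first THZ1 library (0.13, adjusted p = 0.0523) or the second (0.12, adjusted p = 0.0792). That of MSMO1 was lost without the second DMSO or the second THZ1 library (0.13 each, adjusted p = 0.107 and 0.133). That of SC5D was lost without the second DMSO library (0.15, adjusted p = 0.177), the second THZ1 library (0.16, adjusted p = 0.168) or the third (0.21, adjusted p = 0.0615).

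HSD17B7, the sterol 3-keto reductase (chromosome 1, 162790702 to 162812817), was the one member called in opposite directions in BxPC3 and Panc327. It was at 4.87, 6.56 and 5.47 CPM with DMSO and at 9.96, 8.49 and 6.48 CPM with THZ1 in BxPC3, where the groups overlapped. In Panc327 its level was 9.09, 8.04 and 7.42 CPM with DMSO and 6.25, 3.93 and 4.54 CPM with THZ1, with no overlap. The log2 fold changes were 0.55 (SE 0.18, adjusted p = 0.00634) and -0.72 (SE 0.20, adjusted p = 0.000814). The fall in Panc327 held, but the rise in BxPC3 was at 0.15 and uncalled with library size alone, and was lost without the first THZ1 library (0.40, adjusted p = 0.0934). In SUIT2 its level was 6.80, 6.47 and 5.97 CPM with DMSO and 7.17, 4.88 and 6.14 CPM with THZ1, which overlapped. HSD17B7 has a pseudogene, HSD17B7P2, that is counted separately in the files, so reads could be split between them.

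Among the regulators, both INSIG genes fell and SCAP and SREBF2 rose in BxPC3 and Panc327, each held. INSIG1, the sterol-regulated retention protein (chromosome 7, 155297776 to 155310235; promoter printed above), was at 63.9, 66.4 and 59.7 CPM with DMSO and at 31.3, 33.6 and 33.6 CPM with THZ1 in BxPC3. In Panc327 it was at 13.1, 13.2 and 12.3 CPM with DMSO and at 7.29, 4.76 and 6.12 CPM with THZ1. In SUIT2 it was at 24.5, 20.6 and 24.2 CPM with DMSO and at 18.3, 17.9 and 20.2 CPM with THZ1. Every library with THZ1 was below every DMSO library of its line. The log2 fold changes were -0.95 (SE 0.08, adjusted p = 4.92e-19) in BxPC3, -1.07 (SE 0.16, adjusted p = 5.11e-09) in Panc327 and -0.30 (SE 0.10, adjusted p = 0.0265) in SUIT2. The SUIT2 call was lost without the first DMSO library (-0.26, adjusted p = 0.116), the third (-0.27, adjusted p = 0.117), the first THZ1 library (-0.28, adjusted p = 0.0865) or the second (-0.27, adjusted p = 0.0972). INSIG2, the second INSIG protein (chromosome 2, 118088452 to 118110997), was at 25.6, 21.3 and 23.7 CPM with DMSO and at 13.2, 12.7 and 10.96 CPM with THZ1 in BxPC3. In Panc327 it was low, at 8.203, 7.61 and 9.82 CPM with DMSO and at 4.51, 2.07 and 3.95 CPM with THZ1. In SUIT2 its level was 17.9, 17.0 and 16.7 CPM with DMSO and 17.6, 17.1 and 17.8 CPM with THZ1. The INSIG2 groups stood apart in BxPC3 (log2 fold change -0.94, SE 0.12) and Panc327 (-1.25, SE 0.21) and overlapped in SUIT2 (0.03, SE 0.11).

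SREBF2 (chromosome 22, 41833079 to 41907308; promoter printed above) was at 197, 189 and 192 CPM with DMSO and at 292, 305 and 289 CPM with THZ1 in BxPC3. In Panc327 its level was 204, 199 and 206 CPM with DMSO and 333, 332 and 341 CPM with THZ1. In SUIT2 it was at 164, 162 and 166 CPM with DMSO and at 181, 180 and 180 CPM with THZ1. The groups did not overlap in any line. The rises were 0.62 (SE 0.04, adjusted p = 1.55e-23), 0.72 (SE 0.04, adjusted p = 3.65e-28) and 0.13 (SE 0.04, adjusted p = 0.0304) on the log2 scale. The SUIT2 value was uncalled with library size alone (0.12, adjusted p = 0.0609) and when any of the 6 SUIT2 libraries was left out (0.12 to 0.14, adjusted p up to 0.0977). SCAP (chromosome 3, 47413694 to 47477126) was at 88.8, 90.0 and 84.3 CPM with DMSO and at 131, 129 and 118 CPM with THZ1 in BxPC3. In Panc327 it was at 109, 103 and 108 CPM with DMSO and at 146, 140 and 151 CPM with THZ1, and in SUIT2 at 124, 124 and 120 CPM and at 140, 139 and 134 CPM. All 3 pairs of groups stood apart, with log2 fold changes of 0.53 (SE 0.06), 0.45 (SE 0.05) and 0.17 (SE 0.05). These held, though with library size alone they shrank to 0.13, 0.12 and 0.15. The SUIT2 call of SCAP was lost without the third DMSO library (0.15, adjusted p = 0.0973), the first THZ1 library (0.15, adjusted p = 0.0724) or the second (0.16, adjusted p = 0.0635).

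SREBF1 (chromosome 17, 17810399 to 17837002) was at 139, 149 and 140 CPM with DMSO and at 173, 193 and 177 CPM with THZ1 in BxPC3. In Panc327 its level was 257, 247 and 269 CPM with DMSO and 316, 332 and 319 CPM with THZ1. It was called higher in both (0.34 and 0.32, SE 0.05 each), but with library size alone it stood at -0.05 (adjusted p = 0.399) and -0.0021 (adjusted p = 0.980). In SUIT2 its level was 199, 203 and 201 CPM with DMSO and 223, 179 and 194 CPM with THZ1, which overlapped. The 2 SREBF genes thus differed in what held: SREBF2 was called higher in BxPC3 and Panc327 with each scaling, and SREBF1 only with scalings that centre the typical gene. Exons of SREBF1 overlap RAI1 over 6.92% of their length.

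**Figure D2:**
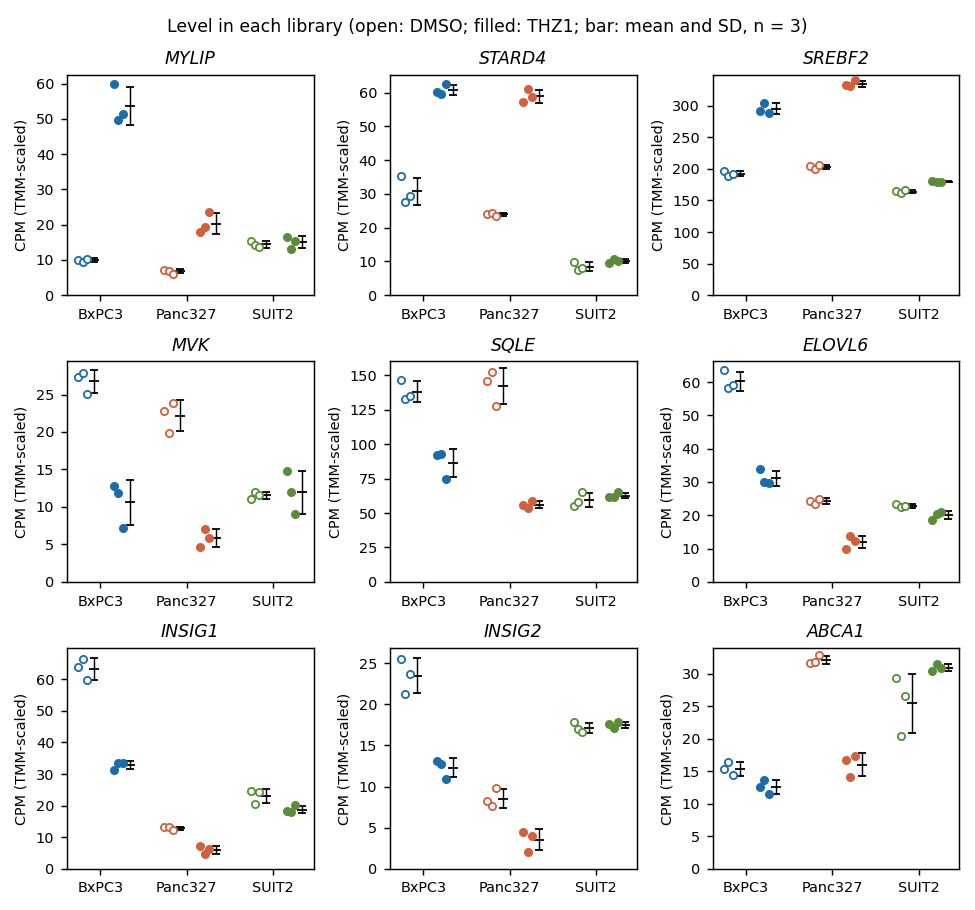
TMM-scaled CPM of 9 members in each library, by line (open points DMSO, filled points THZ1, bars mean and SD, n = 3). MYLIP lies at 49.9 to 59.9 CPM with THZ1 against 9.28 to 10.4 CPM with DMSO in BxPC3 and overlaps in SUIT2, and INSIG1 lies lower with THZ1 in all 3 lines; the INSIG1 and MYLIP directions in BxPC3 and Panc327 are the same with library size alone.

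Of the genes of sterol uptake, transport and efflux, MYLIP rose most in BxPC3, where its change was the largest of any member with each scaling, while in Panc327 the change of MVK was larger. MYLIP, an E3 ubiquitin ligase that directs lipoprotein receptors to degradation and is known as an LXR target (chromosome 6, 16129125 to 16148248; promoter printed above), was at 9.86, 9.28 and 10.4 CPM with DMSO and at 59.9, 49.9 and 51.5 CPM with THZ1 in BxPC3. In Panc327 it was at 7.21, 6.86 and 6.11 CPM with DMSO and at 17.9, 19.5 and 23.5 CPM with THZ1. In SUIT2 it was at 15.3, 14.2 and 13.6 CPM with DMSO and at 16.5, 13.1 and 15.4 CPM with THZ1. The groups stood far apart in BxPC3, less far in Panc327, and overlapped in SUIT2. The rise was 5.46-fold in BxPC3 (log2 fold change 2.45, SE 0.11, adjusted p = 1.2e-37), and the log2 fold changes were 1.58 (SE 0.14, adjusted p = 3.68e-18) in Panc327 and 0.07 (SE 0.12, adjusted p = 0.744) in SUIT2. STARD4, a soluble protein that carries cholesterol between membranes (chromosome 5, 111496033 to 111512590; promoter printed above), was at 35.3, 27.6 and 29.3 CPM with DMSO and at 60.3, 59.8 and 62.6 CPM with THZ1 in BxPC3. In Panc327 its level was 24.2, 24.2 and 23.4 CPM with DMSO and at 57.3, 61.0 and 58.6 CPM with THZ1, and in SUIT2 at 9.84, 7.33 and 7.96 CPM and 9.52, 10.6 and 10.1 CPM. It rose in BxPC3 (log2 fold change 0.99, SE 0.08) and Panc327 (1.30, SE 0.08), where the groups did not overlap, and was at 0.26 (SE 0.14, adjusted p = 0.222) in SUIT2. The rises of MYLIP and STARD4 held in both lines. Exons of STARD4 overlap STARD4-AS1 on the other strand over 2.18% of their length.

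ABCA1, the pump that hands cholesterol to apolipoproteins and another known LXR target (chromosome 9, 104781002 to 104928237), went the other way from MYLIP in Panc327. It was at 31.6, 31.8 and 32.9 CPM with DMSO and at 16.7, 14.1 and 17.4 CPM with THZ1 in Panc327. In BxPC3 it was at 15.3, 16.4 and 14.4 CPM with DMSO and at 12.6, 13.6 and 11.5 CPM with THZ1, and in SUIT2 at 29.3, 20.4 and 26.6 CPM and at 30.5, 31.4 and 30.9 CPM. No group overlapped its control, and the second SUIT2 library with DMSO was the lowest of its group. The fall in Panc327 was a log2 fold change of -1.0 (SE 0.11, adjusted p = 1.25e-13) and held. In BxPC3 it was -0.29 (SE 0.13, adjusted p = 0.0421), which was not called with RLE size factors (-0.25). That call was also lost without the first DMSO library (-0.30, adjusted p = 0.0621), the second (-0.24, adjusted p = 0.136), the first THZ1 library (-0.30, adjusted p = 0.0754) or the third (-0.23, adjusted p = 0.180). In SUIT2 ABCA1 was called higher (0.28, SE 0.09, adjusted p = 0.0261) with each scaling. That call was lost without the second DMSO library (0.15, adjusted p = 0.360), the second THZ1 library (0.27, adjusted p = 0.0757) or the third (0.28, adjusted p = 0.0639). NPC1, which exports cholesterol from lysosomes, was called higher in Panc327 (0.30, SE 0.05), where library size alone gave -0.03. It was at 0.05 in BxPC3, called lower at -0.34 with library size alone, and at -0.07 in SUIT2 (adjusted p = 0.514).

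In fatty acid synthesis, SCD rose and ELOVL6 fell in BxPC3 and Panc327. SCD, the stearoyl-CoA desaturase, had the highest level per kilobase of exon of any member with DMSO in each line, 155 ± 8.28 CPM per kb in BxPC3, 121 ± 0.593 in Panc327 and 191 ± 7.84 in SUIT2 (SD, n = 3). With THZ1 its level went from 831 ± 44.4 to 1423 ± 66.7 CPM in BxPC3 (log2 fold change 0.78, SE 0.04) and from 646 ± 3.18 to 1194 ± 35.7 CPM in Panc327 (0.89, SE 0.04), and both rises held. In SUIT2 its level was 1025 ± 42.0 and 1028 ± 80.9 CPM. ELOVL6, which lengthens palmitate (chromosome 4, 110045846 to 110199199), was at 63.5, 58.1 and 59.0 CPM with DMSO and at 33.8, 30.1 and 29.7 CPM with THZ1 in BxPC3. In Panc327 it was at 24.4, 23.3 and 25.0 CPM with DMSO and at 9.89, 13.7 and 12.2 CPM with THZ1, and in SUIT2 at 23.4, 22.5 and 22.7 CPM and at 18.7, 20.3 and 21.0 CPM. No groups overlapped, and the log2 fold changes were -0.95 (SE 0.08), -1.03 (SE 0.12) and, uncalled, -0.19 (SE 0.10, adjusted p = 0.175).

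FASN, fatty acid synthase, rose from 433 ± 42.5 to 762 ± 29.7 CPM in BxPC3 (0.82, SE 0.05), which held. It was called higher in Panc327 (0.43, SE 0.05), where library size alone gave an uncalled 0.10 (adjusted p = 0.0698). ACLY, which makes cytosolic acetyl-CoA, was called higher in BxPC3 (0.26, SE 0.04), but lower at -0.14 with library size alone, and in Panc327 was at 0.07, called lower at -0.26 with library size alone. ACACA, acetyl-CoA carboxylase, was called higher in BxPC3 (0.21, SE 0.05) and Panc327 (0.27, SE 0.04), which became -0.19, called lower, and -0.05 with library size alone. FADS1, the delta-5 desaturase (chromosome 11, 61799625 to 61829318), was called in opposite directions in Panc327 and SUIT2. It was at 49.6, 51.5 and 50.9 CPM with DMSO and at 80.3, 79.2 and 72.0 CPM with THZ1 in Panc327, and at 50.6, 45.5 and 44.2 CPM and at 37.9, 34.4 and 42.6 CPM in SUIT2. In BxPC3 it was at 108, 102 and 103 CPM with DMSO and at 105, 101 and 90.7 CPM with THZ1. The groups stood apart in Panc327 (0.61, SE 0.07, adjusted p = 7.42e-13) and SUIT2 (-0.28, SE 0.08, adjusted p = 0.00524) and overlapped in BxPC3 (-0.08, SE 0.06), where library size alone gave a call at -0.47. Both calls held, but the SUIT2 call was lost without the first DMSO library (-0.22, adjusted p = 0.0640) or the second THZ1 library (-0.22, adjusted p = 0.0709). FADS2, the delta-6 desaturase, rose in Panc327 (0.65, SE 0.08), which held, and was at 0.16 (adjusted p = 0.426) in BxPC3 and -0.33 (adjusted p = 0.375) in SUIT2. Exons of FADS1 and FADS2 overlap each other on opposite strands, and those of FADS2 also overlap FEN1 on the same strand.

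**Figure D3:**
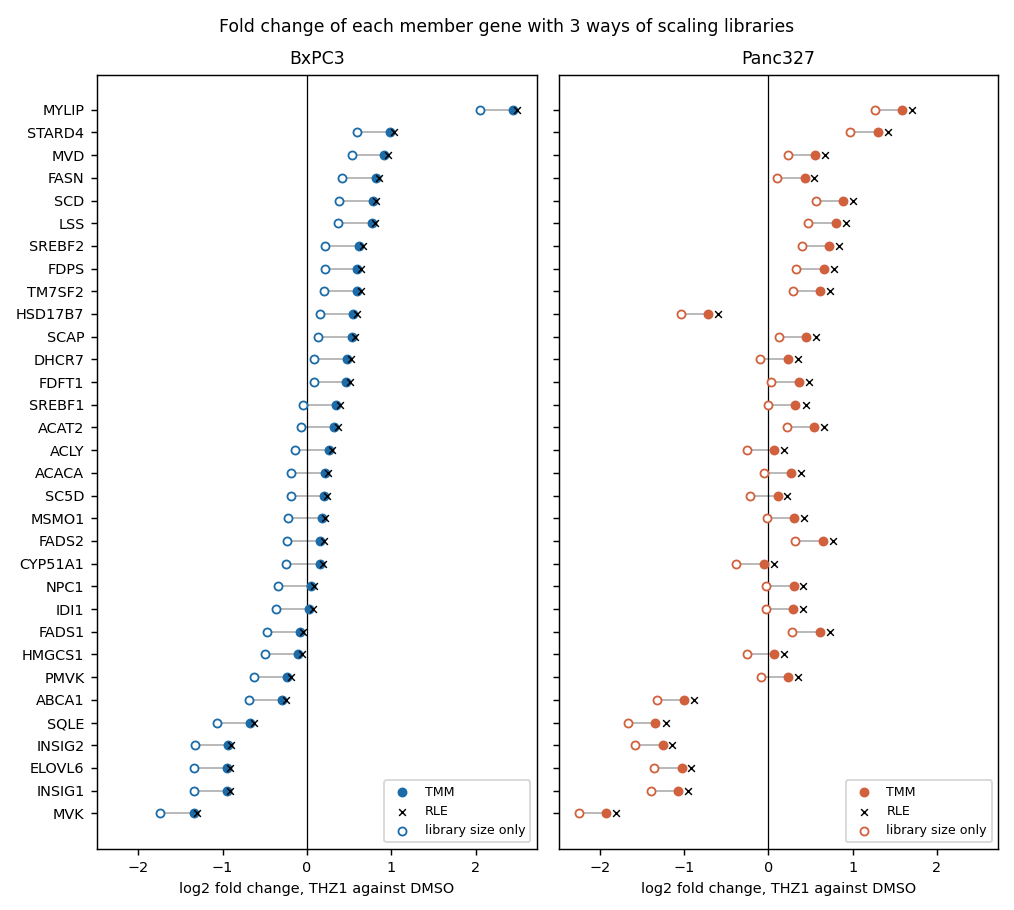
Log2 fold change of each member with THZ1 against DMSO in BxPC3 and Panc327 under TMM, RLE size factors and library size alone. Library size alone lies below TMM for every member, so that SREBF1 goes from 0.34 to -0.05 in BxPC3, whereas MYLIP (2.05) stays above 0 and MVK (-1.74) below it.

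SUIT2 moved little. The 7 calls with TMM had absolute log2 fold changes of at most 0.30. They were LSS, SCAP, SREBF2, ABCA1 and FASN, higher, and INSIG1 and FADS1, lower. Of these, 3 higher (SCAP, ABCA1 and FASN) and 2 lower (INSIG1 and FADS1) held, where 5.42% and 7.63% of all genes did. Leaving out each of the 6 SUIT2 libraries in turn left 1 to 3 members called higher and 0 to 2 lower. Over all genes, 1353 to 1625 were then called in either direction, against 2044 with every library. Besides the genes already described, the call of FASN (0.18, SE 0.05, adjusted p = 0.0241) was lost without any one DMSO library (0.16 to 0.19) or without the first THZ1 library (0.11, adjusted p = 0.135). That of LSS (0.18, SE 0.06, adjusted p = 0.0479) was lost with library size alone (0.16, adjusted p = 0.0792) and without any one library but the third THZ1 library, down to 0.11 without the first THZ1 library.

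The second comparison asks whether the response to THZ1 differed between lines, as a difference of log2 fold changes. Between BxPC3 and Panc327, 16 of the 32 genes differed, 10 with a more positive response in BxPC3 and 6 in Panc327, where 36.3% of all genes did (22.2% and 14.1%). Of these, 7 and 6 held, where 18.7% and 14.1% of all genes did, and the more positive share of all calls went from 61.1% to 50.8% with library size alone, to 49.6% with RLE size factors, and to 40.8% in a fit of only these lines. The members' split was 5 and 12 in a fit of only these lines, where 2341 and 3399 of 13518 genes were called. DESeq2 called 6 members and 2423 of all genes more positive in BxPC3. In Panc327, 3 members were more positive without a filter on low counts, without the second BxPC3 library with THZ1 or without the third Panc327 library with DMSO. Over all genes, 1742, 1750 and 1836 were more positive in Panc327, in the same order. The responses of the 32 genes in these lines had a Pearson correlation of 0.86 and a Spearman correlation of 0.80. This describes 32 genes and not replicates, in contrasts with separate controls, and over all 14011 genes the values were 0.63 and 0.69. HSD17B7 differed most, by 1.26 (SE 0.27, adjusted p = 7.51e-05), followed by MYLIP at 0.86 (SE 0.18), ABCA1 at 0.70 (SE 0.18), FADS1 at -0.69 (SE 0.09) and SQLE at 0.67 (SE 0.10). None of these lost its call when a library was left out. The response of the regulators SCAP, SREBF1, SREBF2, INSIG1 and INSIG2 was not called different between BxPC3 and Panc327, with differences of -0.11 to 0.32 (SE 0.06 to 0.25), except that SREBF2 was called with library size alone (-0.18, adjusted p = 0.0145), RLE size factors (-0.18), DESeq2 (-0.18) and a fit of only these lines (-0.24).

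Against SUIT2, 22 genes differed in BxPC3 (15 more positive, 7 more negative), where 54.9% of all genes did (27.3% and 27.6%). In Panc327, 25 genes differed from SUIT2 (18 and 7), where 60.7% of all genes did (28.3% and 32.4%). Held were 6 and 7 for BxPC3, where 13.0% and 26.0% of all genes were, and 8 and 6 for Panc327, where 16.7% and 28.5% were. With library size alone the splits were 6 and 14 for BxPC3 and 8 and 11 for Panc327. Among all genes, the more positive share of these differences went from 49.7% to 22.8% and from 46.7% to 28.1%. MYLIP differed by 2.37 (SE 0.16, adjusted p = 9.96e-24) between BxPC3 and SUIT2 and by 1.51 (SE 0.18, adjusted p = 8.96e-12) between Panc327 and SUIT2. MVK differed by -1.40 (SE 0.20) and -1.98 (SE 0.22), SQLE by -0.75 (SE 0.10) and -1.42 (SE 0.10), and INSIG2 by -0.97 (SE 0.17) and -1.28 (SE 0.24). ABCA1 differed by -0.57 (SE 0.16) and -1.28 (SE 0.14), INSIG1 by -0.65 (SE 0.13) and -0.77 (SE 0.19), and ELOVL6 by -0.75 (SE 0.13) and -0.84 (SE 0.16). STARD4 differed by 0.73 (SE 0.16) and 1.04 (SE 0.17), and SCD by 0.77 (SE 0.06) and 0.88 (SE 0.06). These 9 genes kept the sign of both differences with library size alone, but the difference of STARD4 between BxPC3 and SUIT2 fell to 0.35 and lost its call (adjusted p = 0.0605). The differences of SREBF1, 0.36 and 0.34, became -0.02 and 0.03 with library size alone, and those of SCAP, 0.36 and 0.28, became -0.02 and -0.03. These comparisons share the SUIT2 libraries, so they are not independent of each other.

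The third comparison sets the lines side by side with DMSO alone. Of the 32 genes, 16 were higher and 11 lower in BxPC3 than in Panc327, where 79.3% of all genes were called (38.6% and 40.7%). The counts were 19 and 10 for BxPC3 against SUIT2, where 78.6% were called (38.9% and 39.7%), and 19 and 10 for Panc327 against SUIT2, where 82.5% were called (42.9% and 39.6%). Held were 16 and 11, where 37.9% and 40.7% of all genes were, 19 and 10, where 36.9% and 39.1% were, and 17 and 10, where 41.4% and 38.7% were, in the same order. Calls were thus about as frequent among members as among all genes, and 4 members differed by a log2 fold change of at least 2 in some pair of lines. HMGCS1, whose product starts the committed path to mevalonate, was at 255, 234 and 233 CPM in BxPC3, at 173, 200 and 177 CPM in Panc327 and at 27.9, 31.4 and 28.3 CPM in SUIT2. SUIT2 lay far below the other lines, by a log2 fold change of 3.04 for BxPC3 against SUIT2 (SE 0.06, adjusted p = 1.18e-63) and 2.65 (SE 0.06) for Panc327 against SUIT2. ACAT2 was at 56.4, 58.7 and 55.3 CPM in BxPC3, at 5.65, 5.79 and 7.86 CPM in Panc327 and at 47.2, 48.1 and 45.9 CPM in SUIT2. Panc327 was the low line, with 3.14 (SE 0.10) for BxPC3 against Panc327 and -2.87 (SE 0.11) for Panc327 against SUIT2. INSIG1 was highest in BxPC3, by 2.30 (SE 0.09) against Panc327 and 1.45 (SE 0.08) against SUIT2. FADS2 was at 5.96, 6.33 and 8.77 CPM in BxPC3, at 49.0, 50.6 and 44.4 CPM in Panc327 and at 3.52, 3.66 and 3.98 CPM in SUIT2. Panc327 was thus the high line, by 3.68 (SE 0.12) against SUIT2, with -2.77 (SE 0.11) for BxPC3 against Panc327.

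Of the 7 mevalonate genes, ACAT2 and HMGCS1 included, 6 were higher in BxPC3 than in Panc327 and 0 lower, where 38.6% and 40.7% of all genes were. The call of MVK among them (0.27, SE 0.10) was lost without the second BxPC3 library (0.24, adjusted p = 0.0559) or the second Panc327 library (0.19, adjusted p = 0.116). Against SUIT2, 6 were higher in BxPC3 and 1, PMVK, lower (log2 fold change -1.33, SE 0.09), where 38.9% and 39.7% of all genes were. FDFT1 was higher in BxPC3 by 1.93 (SE 0.05) against Panc327 and 1.81 (SE 0.05) against SUIT2. ACACA and FASN were highest in Panc327, at 384 ± 13.4 and 918 ± 30.5 CPM, against 131 ± 0.966 and 433 ± 42.5 CPM in BxPC3 and 172 ± 12.1 and 447 ± 9.94 CPM in SUIT2 (SD, n = 3). SREBF1 was also highest in Panc327, at 32.1 ± 1.35 CPM per kb of exon, against 17.7 ± 0.695 in BxPC3 and 25.1 ± 0.212 in SUIT2. SREBF2 varied less, at 26.9 ± 0.433, 25.5 ± 0.493 and 21.7 ± 0.283 CPM per kb. Per length, SREBF2 was thus above SREBF1 in BxPC3 and below it in Panc327 and SUIT2. Per length, HMGCS1 ranked 2 among members in BxPC3, 5 in Panc327 and 21 in SUIT2, while HSD17B7 ranked 31 in each line.

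**Figure D4:**
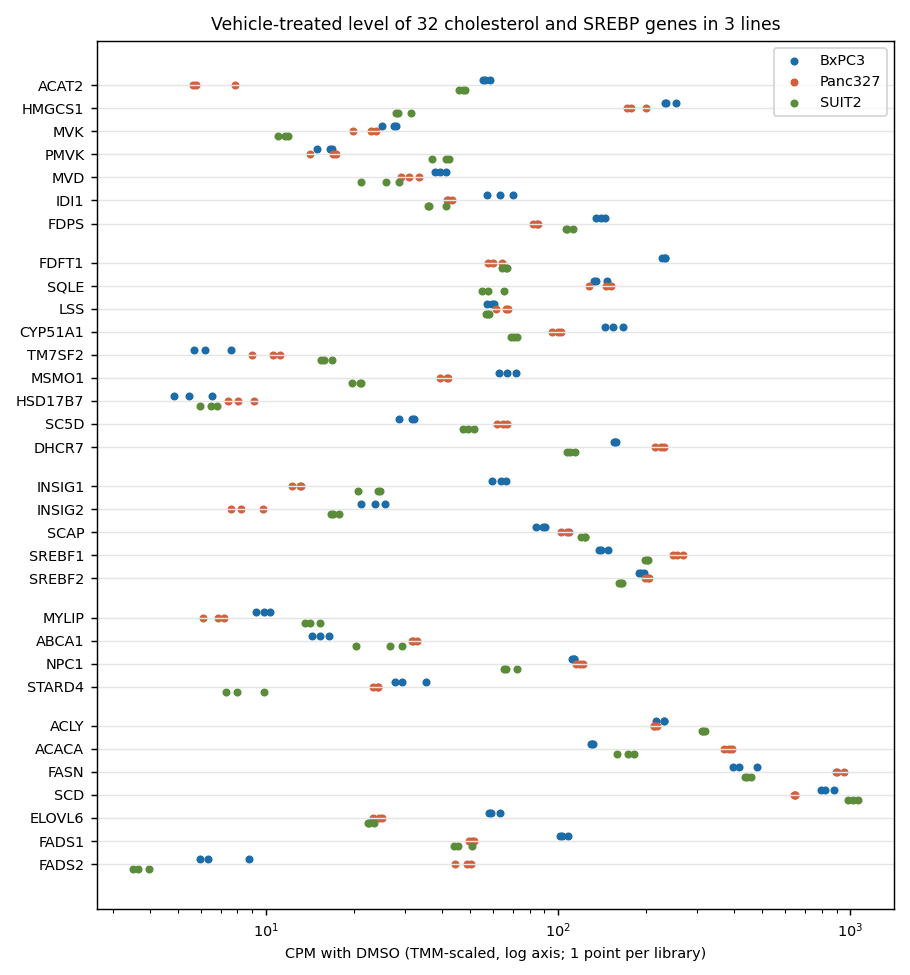
TMM-scaled CPM of each member in the 9 libraries with DMSO, on a log axis, by line (1 point per library, not divided by gene length). HMGCS1 lies at 27.9 to 31.4 CPM in SUIT2 and at 173 to 255 CPM in the other lines, ACAT2 is lowest in Panc327 at 5.65 to 7.86 CPM, and FADS2 is highest there at 44.4 to 50.6 CPM.

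The wider pathway was read from 6 further lists, of which 60 genes were counted and tested. In BxPC3, 34 were called higher and 15 lower, in Panc327 27 and 20, and in SUIT2 7 and 10. With library size alone the counts were 18 and 27, 20 and 30, and 5 and 11. Over all 14011 tested genes, library size alone gave 2601 and 7109, 3170 and 7042, and 759 and 1174. With TMM, 81.7%, 78.3% and 28.3% of the 60 genes were called, where 69.4%, 73.4% and 14.6% of all tested genes were. The counts of each list below are to be read against these TMM shares. By direction, the shares of all genes called higher and lower were 35.2% and 34.1% in BxPC3, 35.6% and 37.8% in Panc327, and 6.95% and 7.64% in SUIT2. Of 9 genes of SREBP processing and turnover, 6 were higher and 2 lower in BxPC3, 6 and 3 in Panc327, and 1 and 3 in SUIT2. MBTPS2, the site-2 protease that frees SREBPs from the membrane, fell from 22.9 ± 1.62 to 9.42 ± 0.809 CPM in BxPC3, from 30.6 ± 1.69 to 15.2 ± 2.68 CPM in Panc327 and from 53.0 ± 2.68 to 45.2 ± 2.78 CPM in SUIT2 (SD, n = 3; log2 fold changes -1.28, -1.02 and -0.23). FBXW7, which marks nuclear SREBPs for degradation, rose in BxPC3 (1.05) and Panc327 (1.12). These directions were the same with library size alone.

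Of 6 other sterol synthesis genes tested, 3 were higher and 2 lower in BxPC3, 3 and 2 in Panc327, and 0 and 2 in SUIT2. GGPS1, which turns farnesyl into geranylgeranyl diphosphate, fell in all 3 lines (-1.06, -0.81 and -0.35). Of 13 genes of sterol transport, storage and lipoprotein receptors, 8 were higher and 4 lower in BxPC3, 6 and 5 in Panc327, and 3 and 1 in SUIT2. NPC2, the lysosomal partner of NPC1, rose from 130 ± 8.94 to 266 ± 3.45 CPM in BxPC3 and from 138 ± 1.95 to 318 ± 7.86 CPM in Panc327 (SD, n = 3). GRAMD1A, which moves cholesterol from the plasma membrane, fell in each line (-0.82, -2.15 and -0.32). Of 7 genes of LXR and its targets, 2 were higher and 3 lower in BxPC3, 1 and 3 in Panc327, and 1 and 2 in SUIT2. LPCAT3, a phospholipid acyltransferase and known LXR target, rose in each (0.62, 0.70 and 0.20), while RXRA, the partner receptor of LXR, fell in each (-0.77, -0.72 and -0.20). NR1H3, which encodes LXR alpha, fell in BxPC3 (-1.76, at 2.78 ± 0.440 CPM with DMSO) and SUIT2 (-0.40), and was at -0.38 (adjusted p = 0.0699) in Panc327. Of 15 other genes of fatty acid synthesis and activation, 9 were higher and 2 lower in BxPC3, 8 and 2 in Panc327, and 1 and 1 in SUIT2. ACSL4, a long-chain acyl-CoA synthetase, rose in BxPC3 (0.55) and Panc327 (0.86) and ELOVL1 fell in each line (-0.31, -0.26 and -0.28). Of 10 genes of isoprenoid use, 6 were higher and 2 lower in BxPC3, 3 and 5 in Panc327, and 1 and 1 in SUIT2, and FNTA, a farnesyltransferase subunit, fell in each (-0.80, -0.37 and -0.29). The directions named for single genes in these lists were unchanged with library size alone.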

How the data were processed

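RNA of 18 libraries was counted per gene symbol. The deposited files hold raw counts from the authors. The submitters' processing notes name HTSeq 0.6.1, TopHat2 2.1.0, bcl2fastq 1.8.4 and the build hg38. Not given in the sources used here were which annotation was counted, how strand was set and the overlap mode. The library kit (TruSeq RNA v2, per the labels' protocols) does not mark strand. The 5 summary entries of the counter (21.3% to 64.6% of records) entered neither library sizes nor tests.

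Counts were analysed in R 4.3.3 with DESeq2 1.42.0, limma 3.58.1 and edgeR 4.0.16, and tabulated in Python 3.11.15 with pandas 2.3.3, numpy 2.4.6, scipy 1.17.1 and matplotlib 3.10.9. Genes passed filterByExpr (minimum count 10, minimum total 15). The robust quasi-likelihood fit had 6 group means and 12 residual degrees of freedom, TMM scaling, and calls at a Benjamini-Hochberg adjusted p under 0.05. SE is the absolute log2 fold change over the square root of F, and is approximate. Directions are thus relative to the typical gene. In bulk RNA, fewer cells and less RNA per cell cannot be told apart. Depth limits genes of a few CPM most. Counts of the 18 pairs of replicates differed by more than sampling noise (chi-square per degree of freedom 1.25 to 2.53), and 0 were identical. The pipeline was tested on simulated data.

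The members and lists were chosen with earlier results of these data known. All 32 members are named. Values in every library are given for members of at least 10 CPM in some group with a called absolute log2 fold change of at least 1 with THZ1, for members called in opposite directions in a pair of lines, for the 5 regulators, and for members differing by at least 2 (log2) between lines with DMSO. From each further list, up to 2 called genes per direction and contrast are named. Some genes that this rule names are not reported here. Positions are from GENCODE 29 on GRCh38, which matched 32 members by symbol, and promoters from RefSeq on GRCh38.p14. Alternatives were DESeq2, limma voom, RLE size factors, scaling by library size only, dropping the filter, fitting only the lines compared, a block for replicate numbers, and leaving out each library.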

Additional observations from a re-analysis of the deposited data

Results flagged for a closer look

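Each result here is a difference between lines in the response to THZ1, tested as a difference of log2 fold changes with the edgeR quasi-likelihood test, and singled out because the lines differed by that test and either called opposite directions or differed by at least a log2 value of 1. Of the 32 genes, 16 differed between BxPC3 and Panc327, 22 between BxPC3 and SUIT2, and 25 between Panc327 and SUIT2, where 36.3%, 54.9% and 60.7% of all genes did. With library size alone, the splits of more positive and more negative members went from 10 and 6 to 7 and 9, from 15 and 7 to 6 and 14, and from 18 and 7 to 8 and 11. Over all genes, library size alone called 2658 and 2575, 1820 and 6158, and 2338 and 5988, in the same order. Between BxPC3 and Panc327, HSD17B7 differed by 1.26. Between BxPC3 and SUIT2, ABCA1 differed by -0.57, MVK by -1.40 and MYLIP by 2.37. The BxPC3 calls of HSD17B7 and ABCA1 did not hold with each scaling, so their opposite directions in these pairs of lines did not hold either. Between Panc327 and SUIT2, ABCA1 differed by -1.28, FADS1 by 0.89, MVK by -1.98, SQLE by -1.42, INSIG2 by -1.28, MYLIP by 1.51 and STARD4 by 1.04. The share of records aligned to more than 1 place rose with THZ1 in BxPC3 and Panc327 and not in SUIT2, and its part in these differences was not tested.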

How the results depend on the processing

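Library size alone, in place of TMM, gave 9 members higher and 15 lower in BxPC3, 10 and 11 in Panc327, 3 higher in SUIT2, 6 and 14 for the response of BxPC3 minus SUIT2, and 8 and 11 for Panc327 minus SUIT2. Over all 14011 genes it gave, in the same order, 2601 and 7109, 3170 and 7042, 759 higher, 1820 and 6158, and 2338 and 5988. Among members, library size alone turned the sign of 30 values, all by the lower centre that this scaling gives the THZ1 libraries of BxPC3 and Panc327. In BxPC3 these were ACAT2 (-0.07), IDI1 (-0.37), CYP51A1 (-0.25), MSMO1 (-0.22), SC5D (-0.19), SREBF1 (-0.05), NPC1 (-0.34), ACLY (-0.14) and ACACA (-0.19). In Panc327 they were HMGCS1 (-0.26), IDI1 (-0.03), MSMO1 (-0.02), SC5D (-0.22), DHCR7 (-0.10), SREBF1 (-0.0021), NPC1 (-0.03), ACLY (-0.26) and ACACA (-0.05). For BxPC3 minus SUIT2 they were CYP51A1 (-0.31), MSMO1 (-0.27), SC5D (-0.29), SCAP (-0.02), SREBF1 (-0.02), NPC1 (-0.26), ACLY (-0.23) and ACACA (-0.12), and for Panc327 minus SUIT2 FDFT1 (-0.01), DHCR7 (-0.13), SCAP (-0.03) and FASN (-0.06). In SUIT2, the members called higher numbered 3 without a filter, 3 with DESeq2 and 2 with only SUIT2 fitted. Over all genes, 827 of 20202, 603 of 14011 and 713 of 12088 were called higher in these fits, against 974 of 14011 in the main fit. DESeq2 called 1 member and 745 of all genes lower in SUIT2, and 1348 of all genes in either direction against 2044. For BxPC3 minus Panc327, DESeq2 called 6 members higher, the fit of only those lines called 5 higher and 12 lower, with 40.8% of all calls more positive against 61.1%, and the fit without a filter 3 lower. Over all genes these fits called 2423 higher, 2341 higher and 3399 lower, and 1742 lower, in the same order. The main fit called 3110 higher and 1978 lower. The cause of these changes was not tested.

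Leaving out each library in turn gave 9212 to 9432 genes called in BxPC3, with 17 to 20 members higher and 5 to 7 lower. It gave 9856 to 10120 in Panc327 (20 to 21, and 7) and 1353 to 1625 in SUIT2 (1 to 3, and 0 to 2). For the responses it gave 4652 to 4928 for BxPC3 minus Panc327 (8 to 10, and 3 to 6, the 3 without the second BxPC3 library with THZ1 or the third Panc327 library with DMSO), 7324 to 7584 for BxPC3 minus SUIT2 (14 to 16, and 7) and 8176 to 8363 for Panc327 minus SUIT2 (15 to 19, and 6 to 7). With DMSO it gave 10834 to 10900 for BxPC3 against Panc327 (15 to 17, and 10 to 11), 10700 to 10829 for BxPC3 against SUIT2 (19, and 10 to 11) and 11282 to 11445 for Panc327 against SUIT2 (16 to 19, and 10 to 11). Libraries of the same number did not deviate together (9 correlations, -0.0931 to 0.0257), and the main fit did not pair them. These correlations cannot show whether such libraries were made in parallel, which their titles do not say. With a replicate block, 20 members were higher and 7 lower in BxPC3 and 4 and 2 in SUIT2. Over all 14011 genes the block gave 4890 higher and 4746 lower in BxPC3 and 907 and 1013 in SUIT2. Across all contrasts, the block left 285 member values with the same call, gained 2 and lost 1. Over all alternatives and members, 4006 of the values kept direction and call, 202 lost a call, 82 gained one and 30 changed sign.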
